A study of Mus musculus with 12 samples.

Results

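Marginal zone B cells respond to microbial products and to antigen, and the 4 wild-type libraries described here set one stimulus of each kind against the other. WT_LPS (2 libraries) is wild-type marginal zone B cells kept for 4 h with 10 µg/mL of lipopolysaccharide (LPS), and WT_antiIgM (2 libraries) is the same cell type kept for 4 h with 10 µg/mL of an antibody against IgM. They were chosen by their labels from 12 libraries. The comparison covers the 10797 of 24346 gene symbols with at least 1 FPKM in at least 2 of the 12. FPKM, fragments per kilobase of transcript scaled between libraries, is the unit of every level below. The other 8 libraries are wild-type cells without stimulus for 4 h (2), which serve to place the levels, and Trpm5-/- cells under the same 3 conditions (2 each), which hold the same stimulus contrast in cells lacking a calcium-activated cation channel. The labels name no strain, age, sex or cell isolation. Nothing in them ties the 2 libraries of a group to different mice or wells, so p-values here speak of the scatter among libraries only, and that scatter may be technical.

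LPS, a component of the outer membrane of Gram-negative bacteria, is recognised by Toll-like receptor 4 with MD-2 and signals through the adaptors MyD88 and TRIF to NF-kB, MAP kinases and interferon regulatory factors. An antibody against IgM cross-links the B cell receptor, whose kinases LYN, SYK and BTK act on phospholipase C gamma 2. The products open calcium stores and drive calcineurin and NFAT, and also feed protein kinase C, the RAS-ERK cascade and NF-kB. Marginal zone B cells, which lie at the rim of the splenic white pulp facing the blood, are known for fast answers to both kinds of signal.

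Libraries of one group resembled each other closely. Pearson r of log2 values across genes was 0.9735 between the 2 LPS libraries and 0.9727 between the 2 anti-IgM libraries, and 0 pairs of libraries were identical. Relative depth, taken from the step that 1 fragment makes in low genes and set to the first unstimulated wild-type library, was 0.677 and 0.67 with LPS and 0.663 and 0.812 with anti-IgM. The FPKM of a library summed to 765468 and 755419 with LPS and to 620848 and 639364 with anti-IgM. For genes above 0 in all 12 libraries, the median ratio to the geometric mean over libraries was taken. It was 1.0109 and 1.0113 with LPS and 1.0143 and 1.0139 with anti-IgM. Levels are thus alike between libraries in the median gene and not in the total. A median difference near 0 over all genes is therefore largely set by this scale. The defining B cell gene Ms4a1, which encodes CD20, was present at 489.6 and 476 FPKM without stimulus. Of the marginal zone genes, Cr2 (CD21) read 33.9 and 37.5 FPKM and Cd1d1 14.3 and 15.2, beside 126 and 139 for Fcer2a (CD23), which is typical of follicular B cells. Others of the 23 listed marginal zone genes read higher, such as S1pr1 at 186 and 185, or lower, such as S1pr3 at 8.94 and 11.9. Levels of different genes do not rank subsets, so the share of each subset cannot be read from them.

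LPS and anti-IgM left the cells with widely different transcript levels. Of 10797 tested genes, 5695 (52.7%) differed at an adjusted p under 0.05 (limma on log2(FPKM + 1), Benjamini-Hochberg). Of these, 2994 (27.7% of those tested) were higher with LPS and 2701 (25.0%) higher with anti-IgM, while 76.9% of tested genes had no overlap between the 2 LPS and 2 anti-IgM libraries. With 52.7% of genes called, a count of called members in a list below is to be set beside 27.7% and 25.0%. The median size of a called difference was 0.64 on the log2 scale. At least 2-fold differences were fewer with LPS as the higher side, 393 genes (3.64%), than with anti-IgM as the higher side, 838 genes (7.76%). At least 8-fold, the numbers were 23 and 28. Differences below are LPS minus anti-IgM on the log2(FPKM + 1) scale with the standard error (SE) of the model, and this scale understates the change of low genes. Counts of genes at least 2-fold or 8-fold apart are taken on it too, so a gene just past 2-fold in FPKM, such as Egr1, can fall short. In bulk RNA, fewer cells of a type and less RNA per cell cannot be told apart.

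**Figure D1:**
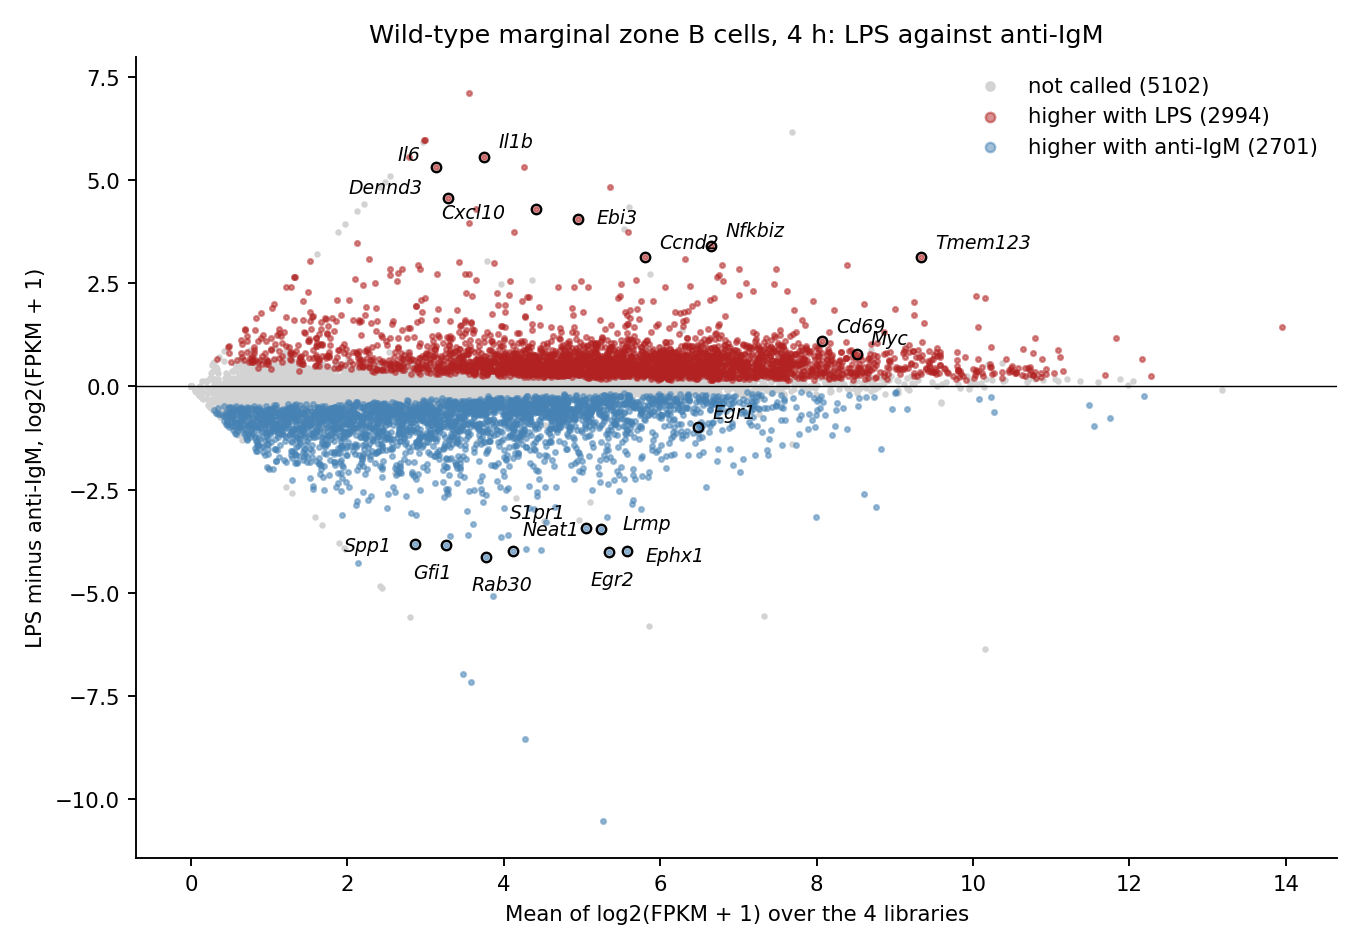
Each point is 1 of the 10797 tested genes: the x axis is the mean of log2(FPKM + 1) over the 4 libraries and the y axis the LPS minus anti-IgM difference on the same scale. Red points are the 2994 genes called higher with LPS, blue points the 2701 called higher with anti-IgM, and the circled genes are named in the text and reach from Il1b at 5.57 to Rab30 at -4.13. Points beyond them include small RNA genes.

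Cytokine and chemokine genes were mostly higher with LPS. Of 39 listed genes 22 were tested, and 17 of these were higher with LPS against 1 higher with anti-IgM, with a median difference of 1.55, where the median over all tested genes was 0.0. Il6, the gene of interleukin 6, read 53.3 and 55.2 FPKM with LPS, 0.420 and 0.344 with anti-IgM and 0.837 and 0.995 without stimulus, a difference between the stimuli of 5.32 ± 0.19 (adjusted p = 1.38e-08). Anti-IgM libraries thus stood below the unstimulated ones and LPS libraries far above both. Il1b, which encodes the precursor of interleukin 1 beta, followed the same order, with 88.1 and 94.7 FPKM under LPS against 1.21 and 0.720 under anti-IgM and 6.64 and 6.10 at rest (5.57 ± 0.16, adjusted p = 3.94e-09). Its relative Il1a read 16.3 and 10.6 against 1.46 and 0.114 (3.10 ± 0.33, adjusted p = 2.75e-05).

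Chemokine genes differed by very unequal amounts. Cxcl10, whose product attracts T cells through CXCR3, read 99.9 and 87.8 FPKM with LPS and 7.18 and 1.80 with anti-IgM (4.30 ± 0.39, adjusted p = 7.61e-06), and the unstimulated libraries, at 5.77 and 7.45, overlapped those of anti-IgM. Ccl22, a ligand of CCR4, read 57.1 and 52 against 1.46 and 2.26 (4.29 ± 0.22, adjusted p = 1.44e-07). Ccl3 and Ccl4, which encode related inflammatory chemokines, instead lay above rest with both stimuli: Ccl3 read 27.9 and 24.4 FPKM at rest, 145 and 150.0 with LPS and 65.4 and 65.2 with anti-IgM (1.16 ± 0.07, adjusted p = 6.4e-07). Ccl4 read 150.4 and 147, 392 and 423, and 332 and 326 in the same order, and its small difference between the stimuli of 0.31 ± 0.07 (adjusted p = 0.00414) became -0.017 (adjusted p = 0.87) under quantile normalization.

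The remaining ligands covered a wide range of levels. Ebi3, a subunit shared by interleukin 27 and interleukin 35, read 131 and 119 FPKM with LPS, 4.99 and 8.46 with anti-IgM and 8.48 and 9.81 at rest (4.07 ± 0.18, adjusted p = 5.05e-08). Tnf read 13.9 and 12.9 with LPS and 3.24 and 3.06 with anti-IgM (1.79 ± 0.19, adjusted p = 2.86e-05), and Lta, the gene of lymphotoxin alpha, 29.8 and 29.6 against 2.93 and 2.65 (3.02 ± 0.23, adjusted p = 2.49e-06). Il10, the gene of an anti-inflammatory cytokine, differed less, with 19.7 and 16.9 against 6.50 and 7.06 FPKM (1.31 ± 0.16, adjusted p = 7.16e-05) and 8.11 and 7.73 at rest. Ltb, which encodes the membrane anchor of lymphotoxin, was highest at rest: it read 282 and 286 FPKM without stimulus, 179 and 175 with LPS and 40.4 and 45.5 with anti-IgM (2.02 ± 0.07, adjusted p = 1.5e-08), so both stimulated groups lay below the resting one. The 1 member higher with anti-IgM was Csf1, the gene of a macrophage growth factor, at 0.666 and 1.30 FPKM with LPS and 5.38 and 7.92 with anti-IgM (-1.94 ± 0.21, adjusted p = 2.87e-05).

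Promoter sequence from RefSeq (GRCm38.p6) is shown for Il6 and Cxcl10, chosen among the leading LPS genes because they hold a match to the kB consensus, the kind of site at which NF-kB acts. Each line gives the 250 bases before the annotated start, 5′ to 3′ on the gene's strand, with every match to the kB consensus on either strand in capitals. The Il6 promoter lies at chr5:30012864-30013113 on the plus strand, with 1 match beginning 44 bases before the start. That of Cxcl10 lies at chr5:92348890-92349139 on the minus strand, with 2 matches, at 159 and 103 bases.
Il6: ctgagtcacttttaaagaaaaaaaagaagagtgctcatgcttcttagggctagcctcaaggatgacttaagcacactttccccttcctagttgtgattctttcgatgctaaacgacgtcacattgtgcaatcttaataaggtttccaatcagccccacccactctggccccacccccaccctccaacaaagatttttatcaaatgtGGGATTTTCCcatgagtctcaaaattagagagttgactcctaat
Cxcl10: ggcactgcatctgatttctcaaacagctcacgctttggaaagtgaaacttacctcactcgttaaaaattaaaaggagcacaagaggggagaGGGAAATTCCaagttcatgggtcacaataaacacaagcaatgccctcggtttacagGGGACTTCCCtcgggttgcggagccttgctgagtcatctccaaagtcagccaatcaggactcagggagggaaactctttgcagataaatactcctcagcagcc
Of all 27025 genes in the table, 4.46% hold a kB match in such a window. Only 73.3% of the genes at least 2-fold higher with LPS and 79.8% of those at least 2-fold higher with anti-IgM could be matched to the table, so shares for these gene sets are void and are not given. Of the 17 cytokine genes higher with LPS, 13 are in the table, so a share is not given for them either. Among the other cytokine genes named above, Ebi3 and Ltb hold a match as well, and so does Csf1, which was higher with anti-IgM. Il1b, Il1a, Ccl22, Ccl3, Tnf and Lta are in the table and hold none in this window. A match is a description of letters and not of binding.

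The NF-kB subunits and their IkB regulators were also mostly higher with LPS. All 14 listed genes differed, 11 higher with LPS and 3 higher with anti-IgM, with a median of 0.62. Nfkbiz, which encodes the nuclear IkB protein needed for Il6 transcription, read 315 and 337 FPKM with LPS, 30.1 and 29.5 with anti-IgM and 14.5 and 14.4 at rest (3.41 ± 0.08, adjusted p = 1.27e-09). Nfkbia, the gene of the cytoplasmic inhibitor IkB alpha and a target of NF-kB itself, read 971 and 990.0, 268 and 265, and 219 and 222 in the same order (1.87 ± 0.05, adjusted p = 2.39e-09). In both genes every LPS library stood above every other wild-type library. Bcl3, a nuclear IkB protein that acts with p50 and p52, showed another order: 90.7 and 99.6 FPKM with LPS, 71 and 72.4 at rest and 20.6 and 19.6 with anti-IgM (2.19 ± 0.08, adjusted p = 1.55e-08). Nfkb2, the precursor of p52, read 253 and 251 with LPS and 115 and 115 with anti-IgM (1.13 ± 0.05, adjusted p = 6.2e-08), the latter close to its 108 and 104 at rest. On the other side stood Rel, which encodes the c-Rel subunit, at 103 and 99 FPKM with LPS and 117 and 124 with anti-IgM (-0.26 ± 0.06, adjusted p = 0.00318), and both exceeded the resting 47.1 and 50.0.

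Inhibitors that switch off Toll-like receptor and cytokine signals split evenly. Of 19 tested, 8 were higher with LPS and 8 with anti-IgM; the median was -0.06 and turned to 0.19 under quantile normalization. Those on the LPS side were larger in difference: 7 of the 8 differed at least 2-fold, against 2 of the 8 on the anti-IgM side. Nfkbiz, Nfkbia and Bcl3 are among these 7 and belong to the NF-kB and IkB list above as well. Tnfaip3, the gene of the ubiquitin-editing enzyme A20, read 199 and 209 FPKM with LPS, 48 and 46.6 with anti-IgM and 26.9 and 26.6 at rest (2.08 ± 0.06, adjusted p = 3.31e-09). Socs3, a brake on JAK-STAT signals, was low throughout at 3.93 and 4.51 with LPS and 0.930 and 1.40 with anti-IgM (1.28 ± 0.20, adjusted p = 0.000368). The promoters of the genes of IkB alpha and A20 are given as those above, at chr12:55492648-55492897 on the minus strand with 1 match at 29 bases, and at chr10:19015411-19015660 on the minus strand (1 of 2 annotated starts) with 2 matches at 125 and 12 bases.
Nfkbia: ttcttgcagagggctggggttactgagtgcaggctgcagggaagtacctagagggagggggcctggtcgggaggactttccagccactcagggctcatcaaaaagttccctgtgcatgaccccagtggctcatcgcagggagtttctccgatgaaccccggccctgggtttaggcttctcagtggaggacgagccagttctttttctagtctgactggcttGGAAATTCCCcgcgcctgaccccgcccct
Tnfaip3: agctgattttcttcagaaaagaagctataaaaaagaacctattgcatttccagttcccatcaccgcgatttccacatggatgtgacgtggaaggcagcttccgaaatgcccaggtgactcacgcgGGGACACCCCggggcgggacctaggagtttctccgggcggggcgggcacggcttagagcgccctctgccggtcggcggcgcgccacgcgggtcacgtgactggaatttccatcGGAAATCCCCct

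The genes of the LPS receptor and its adaptors were not uniformly on one side. Of 27 tested, 11 were higher with LPS and 6 with anti-IgM, so that 63.0% were called, beside 52.7% of all tested genes. The median was 0.13, and -0.03 under quantile normalization. Tlr4 itself was low and lowest with LPS: it read 6.38 and 6.95 FPKM at rest, 0.166 and 0.871 with LPS and 3.89 and 4.67 with anti-IgM (-1.83 ± 0.21, adjusted p = 4.96e-05). Cd14, the co-receptor that hands LPS to TLR4, stayed under 1 FPKM in every wild-type library and was not tested. Cd180, which encodes a TLR4-like receptor of B cells, read 2.45 and 3.22 with LPS and 12 and 13.1 with anti-IgM (-1.83 ± 0.13, adjusted p = 1.8e-06). Irak2, a kinase downstream of MyD88, read 12.3 and 13.1 against 28.1 and 28.7 (-1.11 ± 0.09, adjusted p = 3.13e-06), with the resting libraries at 33 and 31.4. Members on the LPS side were Tlr1, a partner of TLR2 in recognising bacterial lipoproteins, at 38.3 and 42.9 against 4.46 and 3.95 FPKM (3.0 ± 0.14, adjusted p = 8.34e-08), and Ikbke, an IKK-related kinase that acts on IRF3, at 18.7 and 20.2 against 2.63 and 1.24 (2.84 ± 0.28, adjusted p = 1.49e-05).

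Interferon-stimulated genes were called in 43.6% of the list, beside 52.7% of all tested genes. Of 39 tested, 13 were higher with LPS, 7 of them at least 2-fold, and 4 with anti-IgM, and the median was 0.08. Without LPS replicate 1 the counts were 9 and 7 and the median was -0.079. A small set stood out: Isg15, a ubiquitin-like modifier, read 82 and 70.3 FPKM with LPS and 12.1 and 12.1 with anti-IgM (2.55 ± 0.15, adjusted p = 3.99e-07). Oasl1, of the oligoadenylate synthetase family, read 78.2 and 75.5 against 15.4 and 12.1 (2.41 ± 0.13, adjusted p = 2.47e-07), and Gbp5, a guanylate-binding protein, 10.5 and 11.8 against 1.09 and 1.18 (2.50 ± 0.20, adjusted p = 3.21e-06). For the related Gbp2 the resting libraries, at 12.8 and 11.4 FPKM, lay next to those with LPS at 12.2 and 14.5, while anti-IgM libraries read 2.58 and 2.91 (1.94 ± 0.13, adjusted p = 1.1e-06). Among the interferon regulatory factors, Irf4, which directs plasma cell fate, read 206 and 224 FPKM with LPS and 133 and 142 with anti-IgM from 35.9 and 37.1 at rest (0.64 ± 0.06, adjusted p = 1.83e-05). Irf5, which acts with MyD88, read 214 and 218 against 98.4 and 103 (1.10 ± 0.07, adjusted p = 1.01e-06). Irf2 leaned to anti-IgM, with 11.3 and 9.80 against 20.3 and 21.9 (-0.94 ± 0.13, adjusted p = 0.000127) and 56.4 and 59.8 at rest; of the 8 factors tested 4 were higher with LPS and 2 with anti-IgM, but 2 and 4 under quantile normalization.

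**Figure D2:**
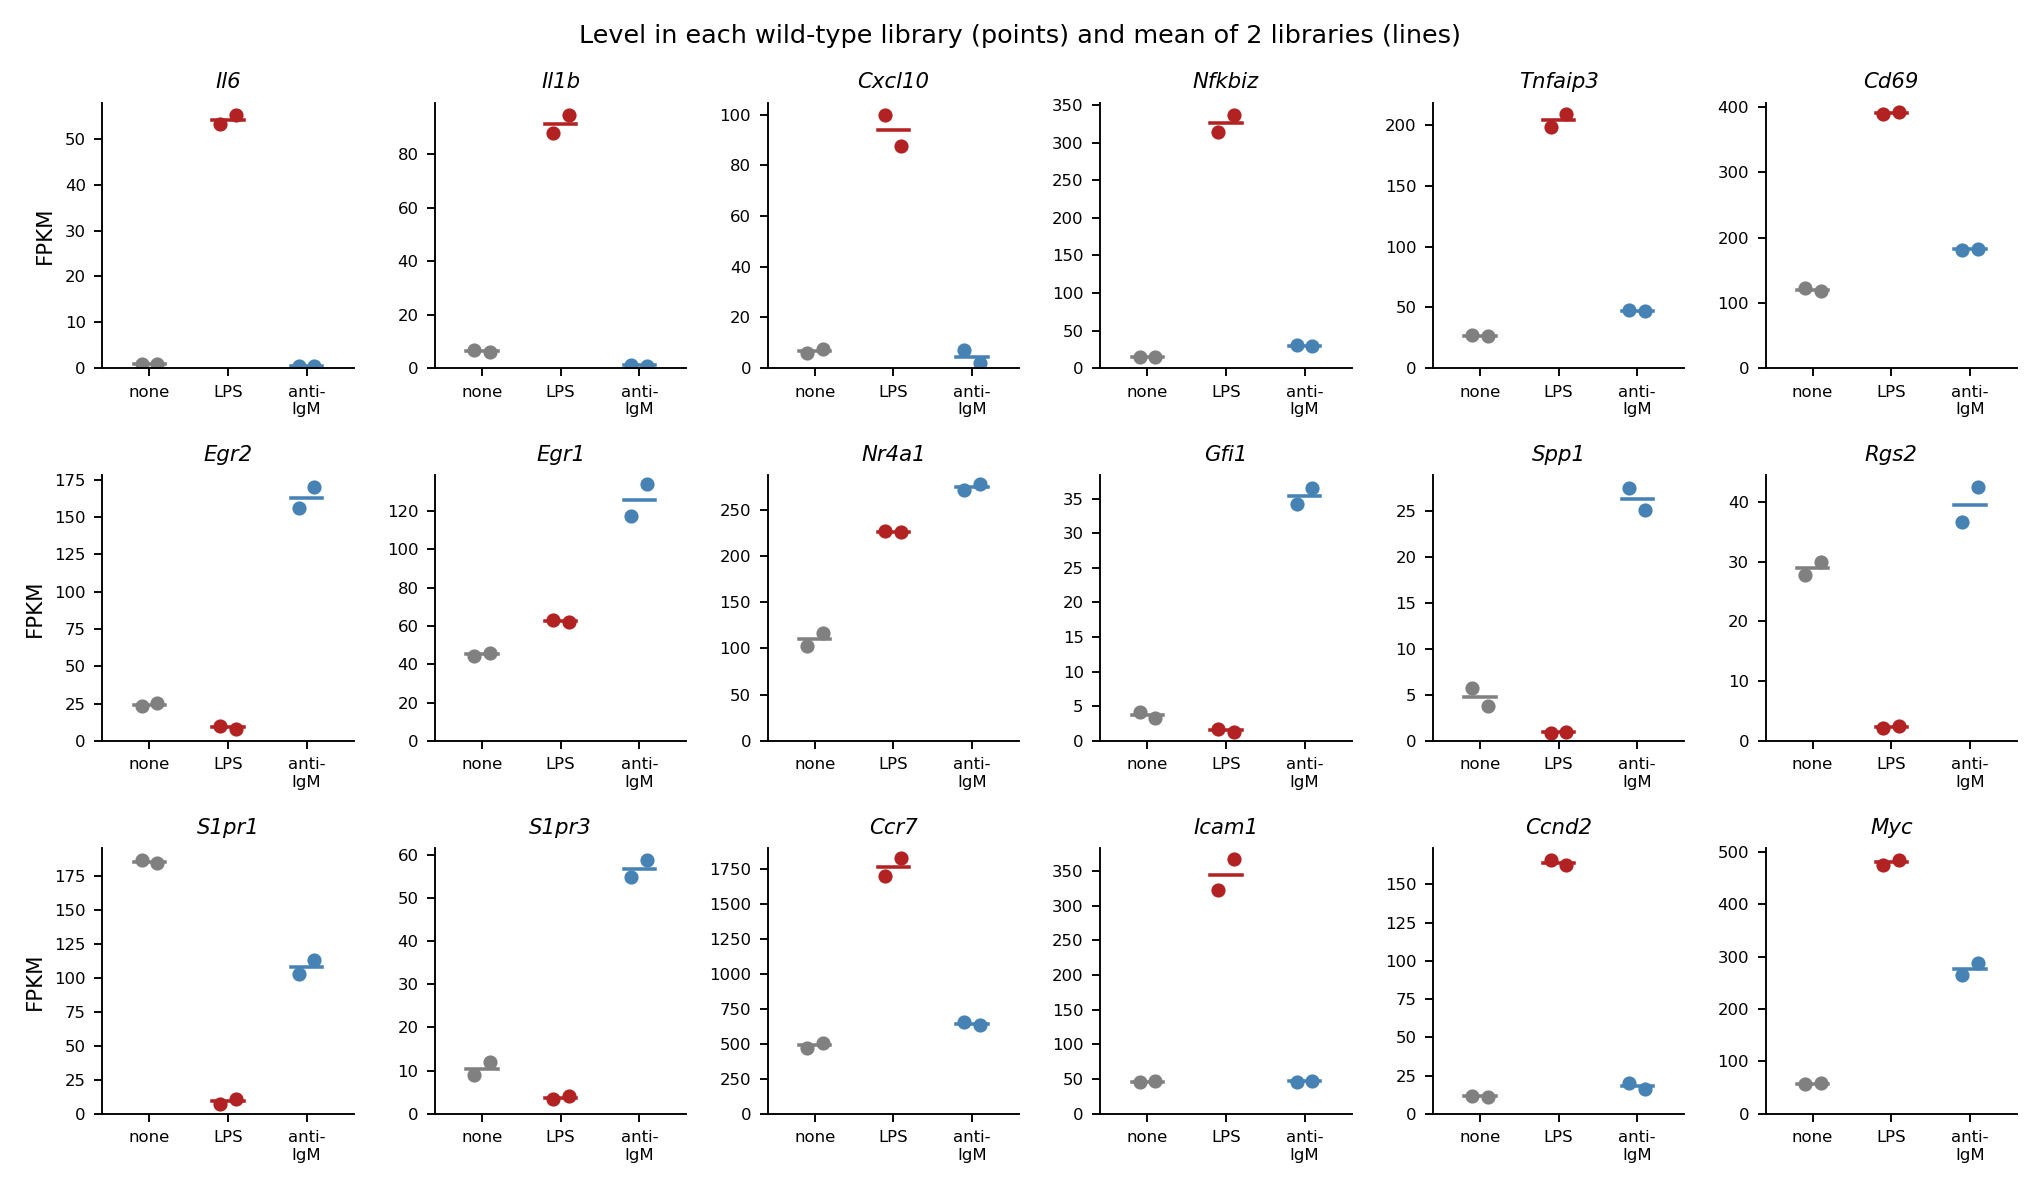
Points are the FPKM of single wild-type libraries (2 without stimulus in grey, 2 with LPS in red, 2 with anti-IgM in blue), lines the mean of 2, and each panel is 1 gene with its own axis from 0. Il6, Nfkbiz and Ccnd2 are high with LPS only among these 3 conditions, Egr2, Gfi1, Spp1 and S1pr3 with anti-IgM only, and Myc and Nr4a1 lie above rest with both.

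The immediate early factors of the EGR and NR4A families marked the anti-IgM side. Of 23 tested genes of this list, 14 were higher with anti-IgM and 7 with LPS, with a median of -0.50. Egr2, a zinc finger factor induced by antigen receptor signals, read 156 and 169.7 FPKM with anti-IgM, 23.2 and 25.1 at rest and 10.3 and 8.14 with LPS (-4.01 ± 0.11, adjusted p = 2.81e-09), so the LPS libraries lay below the resting ones. Egr3 showed the same order at lower levels, 22.1 and 21.7, 8.33 and 7.33, and 3.33 and 2.92 (-2.48 ± 0.16, adjusted p = 7.46e-07). Egr1 was above rest with both stimuli, at 118 and 134 FPKM with anti-IgM and 63 and 62.3 with LPS from 44.5 and 46.1 (-0.99 ± 0.07, adjusted p = 2.17e-06). Nab2, a corepressor of EGR proteins, went with them at 31.4 and 34.8 against 3.98 and 5.06 (-2.63 ± 0.13, adjusted p = 1.3e-07).

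The nuclear receptors of the NR4A family differed by member. Nr4a1, whose reporter is widely used to read antigen receptor signals, was high with both stimuli: 271 and 278 FPKM with anti-IgM and 227 and 226 with LPS from 103 and 117 at rest, and the difference between stimuli was small (-0.28 ± 0.07, adjusted p = 0.00736). Nr4a3 read 13.9 and 15.2 against 6.39 and 7.78 from 3.84 and 4.30 (-0.94 ± 0.13, adjusted p = 0.000195). Nr4a2 read 22.9 and 23.1 with anti-IgM, 2.61 and 3.33 with LPS and 5.02 and 6.94 at rest (-2.60 ± 0.15, adjusted p = 4.21e-07). Thus only Nr4a2 of the 3 lay below its resting level with LPS. Other immediate early genes stood on the LPS side, among them Jun, an AP-1 subunit, at 61.6 and 56.1 FPKM with LPS against 8.60 and 12.3 with anti-IgM (2.41 ± 0.19, adjusted p = 2.77e-06), and Ier5 at 101 and 101 against 36.5 and 35.9 (1.45 ± 0.06, adjusted p = 5.52e-08), both with anti-IgM near the resting level. Ier2 was opposite, at 51.1 and 54.3 against 117 and 122 (-1.17 ± 0.06, adjusted p = 2.5e-07).

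One promoter of Egr2 is shown because serum response factor, a relay of ERK signals at many immediate early genes, binds CArG boxes. It lies at chr10:67537316-67537565 on the plus strand (GRCm38.p6) and belongs to the first by position of 4 starts that hold a match, of 5 annotated, and the capitals mark the match to the CArG consensus, which begins 72 bases before the start. Of all 27025 genes with a table entry, 1.62% hold such a match in this window.
Egr2: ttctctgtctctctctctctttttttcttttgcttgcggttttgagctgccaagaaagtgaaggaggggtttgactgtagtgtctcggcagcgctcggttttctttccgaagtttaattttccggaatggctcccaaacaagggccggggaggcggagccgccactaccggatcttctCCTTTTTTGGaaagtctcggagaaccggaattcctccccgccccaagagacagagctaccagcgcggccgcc

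Calcineurin-NFAT genes and the brakes of the MAP kinases leaned to anti-IgM as well. Of 21 tested calcineurin-NFAT genes, 12 were higher with anti-IgM and 5 with LPS (median -0.33), a list that shares Egr2, Egr3, Nr4a1 and Nr4a3 with the one above. Nfatc1 read 175 and 184 FPKM with anti-IgM, 109 and 121 at rest and 59.9 and 64.1 with LPS (-1.52 ± 0.07, adjusted p = 1.13e-07). Spp1, the gene of osteopontin, read 27.5 and 25.1, 5.73 and 3.75, and 0.896 and 1.01 in that order (-3.81 ± 0.17, adjusted p = 6.2e-08). In both the unstimulated libraries lay between the stimuli without overlap. Of 14 tested MAP kinase brakes 7 were higher with anti-IgM and 2 with LPS (median -0.28). Dusp6, an ERK phosphatase, read 9.04 and 8.12 FPKM with anti-IgM and 1.40 and 1.37 with LPS (-2.01 ± 0.19, adjusted p = 9.93e-06), and Dusp4, a nuclear phosphatase of MAP kinases, 42.1 and 45.6 against 28.5 and 30.1 (-0.57 ± 0.08, adjusted p = 0.000193). The 2 on the LPS side were Dusp5 at 31.7 and 32.1 against 10.9 and 12.7 (1.37 ± 0.14, adjusted p = 2.47e-05) and Dusp14 at 12 and 12.8 against 5.78 and 5.21 (1.05 ± 0.12, adjusted p = 5.65e-05).

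The machinery of the B cell receptor was itself at different levels under the 2 stimuli, in both directions. Of 30 proximal signalling genes, 11 were higher with LPS and 14 with anti-IgM (median -0.10, and 0.01 with a filter on a mean of at least 5 FPKM). The share called was 83.3%, beside 52.7% of all tested genes. The kinase gene Syk read 84.5 and 87.8 FPKM with LPS, 109 and 116 at rest and 22.8 and 25.4 with anti-IgM (1.80 ± 0.08, adjusted p = 3.86e-08), lowest with anti-IgM and highest at rest. Pik3ap1, the adaptor BCAP that recruits PI3 kinase, was opposite at 33.1 and 32.8 FPKM with LPS, 47.8 and 49 at rest and 130.4 and 134 with anti-IgM (-1.97 ± 0.06, adjusted p = 4.18e-09). The Src family kinase gene Fyn read 52.8 and 58.9 against 204 and 188 (-1.79 ± 0.07, adjusted p = 2.42e-08). Lat2, a membrane adaptor, read 22.3 and 26.4 with LPS and 101 and 98 with anti-IgM (-1.99 ± 0.08, adjusted p = 1.73e-08), the latter close to the resting 99.4 and 94.1.

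Negative regulators of the receptor were called more often on the anti-IgM side. Among 23 tested inhibitory receptors, phosphatases and adaptors, 12 were higher with anti-IgM and 5 with LPS (median -0.31). Ptpn22, a phosphatase that acts on Src and SYK family kinases, read 10.9 and 13.8 FPKM with LPS, 106 and 133 with anti-IgM and 82 and 84.1 at rest (-3.17 ± 0.12, adjusted p = 1.96e-08). Dok3, an adaptor that recruits the inositol phosphatase SHIP1, read 5.86 and 6.65, 54.4 and 54.4, and 96.3 and 101 (-2.93 ± 0.07, adjusted p = 1.53e-09), and Inpp5d, the gene of SHIP1, 25.1 and 25.2, 57.1 and 65, and 103 and 110.2 (-1.24 ± 0.09, adjusted p = 1.24e-06). In these last 2 genes both stimulated groups lay below rest and LPS lowest. Btla, an inhibitory receptor, stood on the other side at 156 and 159 FPKM with LPS against 79.2 and 77.4 with anti-IgM (1.0 ± 0.07, adjusted p = 1.87e-06).

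Of 19 tested genes of calcium release, entry and extrusion, 11 were higher with anti-IgM and 1 with LPS, with a median of -0.51. Lrmp, which encodes a membrane protein of the endoplasmic reticulum that binds inositol trisphosphate receptors, read 8.88 and 12.3 FPKM with LPS, 53.2 and 51 at rest and 122 and 127 with anti-IgM (-3.46 ± 0.11, adjusted p = 5.93e-09). Camk2d, a calcium- and calmodulin-dependent kinase, read 10.6 and 11.7, 29.6 and 30.3, and 26.6 and 27.3 (-1.21 ± 0.08, adjusted p = 1.19e-06). The LPS libraries were the lowest in both genes, whereas anti-IgM lay above rest for Lrmp and below it for Camk2d. Atp2b1, a plasma membrane calcium pump, read 14.2 and 15.8 FPKM with LPS against 27.9 and 30.8 with anti-IgM (-0.93 ± 0.09, adjusted p = 1.15e-05).

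Surface proteins by which B cells engage T cells separated in opposite directions by class. Costimulatory and activation genes were higher with LPS in 17 of 23 tested and with anti-IgM in 2, with a median of 1.17. Icam1, an adhesion ligand of LFA-1, read 323 and 367 FPKM with LPS and 46.3 and 47.8 with anti-IgM (2.85 ± 0.07, adjusted p = 1.97e-09), the latter close to the resting 45.5 and 46.9. Cd40, the receptor of CD40 ligand, read 322 and 331, 53.9 and 59.6, and 80.8 and 72.9 in that order (2.51 ± 0.08, adjusted p = 4.93e-09), with anti-IgM below rest. Il2ra (CD25) read 125 and 124, 19.6 and 20.8, and 5.75 and 6.96 (2.57 ± 0.09, adjusted p = 8.39e-09), with anti-IgM above rest. The adhesion receptor gene Cd44 read 208 and 226 against 49.1 and 47 (2.15 ± 0.08, adjusted p = 1.39e-08). Cd69, an early activation antigen, was above the resting 123 and 118 FPKM with both, at 388 and 393 with LPS and 181 and 183 with anti-IgM (1.10 ± 0.05, adjusted p = 4.86e-08). So was Cd86, a ligand of CD28, at 297 and 319 against 224 and 220.1 from 143 and 157 (0.47 ± 0.07, adjusted p = 0.000196), a call that was lost under quantile normalization.

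MHC class II presentation went the other way. Of 15 tested genes 12 were higher with anti-IgM and 2 with LPS (median -0.61), of which 1 in each direction at least 2-fold. H2-Aa, an MHC class II alpha chain, read 4534 and 4479 FPKM with anti-IgM, 3220.0 and 2944 at rest and 2555 and 2730.0 with LPS (-0.77 ± 0.07, adjusted p = 6.58e-06). H2-DMb1 and H2-DMb2 encode beta chains of the peptide exchange factor DM: the first read 63.9 and 60.5 against 37 and 33.2 (-0.81 ± 0.07, adjusted p = 8.15e-06), the second 190.5 and 184 against 112 and 113 (-0.73 ± 0.05, adjusted p = 2.06e-06), and both were higher still at rest, the second at 379.7 and 370.4. Ifi30, a lysosomal thiol reductase, was on the LPS side with 131 and 142 FPKM against 40.6 and 35.8 (1.81 ± 0.08, adjusted p = 5.68e-08).

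Marker genes of B cell subsets differed too. The follicular marker Fcer2a read 937 and 923 FPKM with LPS, 112 and 128 with anti-IgM and 126 and 139 at rest (2.95 ± 0.08, adjusted p = 2.24e-09), with the anti-IgM and resting libraries overlapping. Of 12 tested follicular genes 7 were higher with LPS and 3 with anti-IgM, and of 23 marginal zone genes 8 and 10. The shares called were 83.3% and 78.3%, beside 52.7% of all tested genes. Cd38, an ectoenzyme abundant on marginal zone cells, read 8.71 and 9.32 FPKM with LPS, 46.8 and 46.1 with anti-IgM and 75.7 and 81.1 at rest (-2.25 ± 0.08, adjusted p = 8.6e-09). Among 11 pan-B genes 6 were higher with LPS and 3 with anti-IgM. Ly6d read 2380.0 and 2402 FPKM with LPS, 549 and 542 with anti-IgM and 1491 and 1396 at rest (2.13 ± 0.06, adjusted p = 2.68e-09), and Blk, a Src family kinase gene of B cells, 69.7 and 81.5, 159 and 158, and 126 and 129 (-1.06 ± 0.07, adjusted p = 1.04e-06).

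Receptors that position B cells in the spleen separated the stimuli strongly. Of 27 tested migration genes, 16 were higher with anti-IgM, 11 of them at least 2-fold, and 7 with LPS, with a median of -0.47. S1pr1, the sphingosine 1-phosphate receptor that holds marginal zone B cells near the blood, read 7.49 and 11 FPKM with LPS, 103 and 113 with anti-IgM and 186 and 185 at rest (-3.43 ± 0.15, adjusted p = 4.36e-08). S1pr3, a second receptor of this lipid on the same cells, read 3.50 and 4.05, 54.7 and 58.7, and 8.94 and 11.9 (-3.60 ± 0.14, adjusted p = 2.49e-08). LPS libraries were lowest for both receptors, whereas anti-IgM lay below rest for S1pr1 and above it for S1pr3. Rgs2, which shortens G protein signals, read 2.15 and 2.57 FPKM with LPS, 36.6 and 42.4 with anti-IgM and 27.9 and 30.0 at rest (-3.59 ± 0.11, adjusted p = 4.18e-09), and Rgs1, of the same family, 5.16 and 8.15, 54.5 and 60.5, and 6.77 and 9.43 (-2.96 ± 0.22, adjusted p = 2.17e-06).

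Chemokine receptors divided by ligand. Ccr7, which guides cells to the T cell zone, read 1697 and 1827 FPKM with LPS, 652 and 635 with anti-IgM and 473 and 508 at rest (1.45 ± 0.06, adjusted p = 2.08e-08). Cxcr5, which guides them to follicles, read 382 and 392, 137 and 137, and 146 and 142 (1.49 ± 0.05, adjusted p = 7.07e-09). Both were highest with LPS, and Ccr7 alone of the 2 was above rest with anti-IgM. Ccr6, the receptor of CCL20, was opposite at 37.7 and 43.1 FPKM with LPS, 238 and 209 with anti-IgM and 115 and 106 at rest (-2.44 ± 0.10, adjusted p = 2.25e-08). Cxcr4, the receptor of CXCL12, read 8.49 and 10.9, 41 and 45, and 49.3 and 44.2 (-2.05 ± 0.11, adjusted p = 2.41e-07), with overlap between anti-IgM and rest.

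In the BCL2 family, which holds both survival and death genes, 10 of 14 tested genes were higher with LPS and 2 with anti-IgM (median 0.67). Bcl2l1, whose main product BCL-XL blocks mitochondrial death, read 231 and 230.3 FPKM with LPS, 25.3 and 27.5 with anti-IgM and 11.1 and 10.7 at rest (3.08 ± 0.06, adjusted p = 9.85e-10). The A1 genes Bcl2a1b and Bcl2a1d read 1149 and 1115 against 407 and 374 (1.53 ± 0.08, adjusted p = 1.35e-07) and 392 and 401 against 116 and 103 (1.85 ± 0.13, adjusted p = 1.25e-06); they are near-identical copies, so the split of reads between them is uncertain. A pro-death member was on the same side: Bid, which links death receptors to mitochondria, read 215 and 214 against 108 and 105 (1.0 ± 0.05, adjusted p = 6.1e-08).

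Adaptors of the TNF receptor family followed. Of 11 tested BAFF receptor, TRAF and cIAP genes 9 were higher with LPS and 1 with anti-IgM (median 0.53). Traf1, an adaptor induced by NF-kB, read 264 and 275 FPKM with LPS, 44 and 46.4 with anti-IgM and 33.4 and 31.4 at rest (2.55 ± 0.08, adjusted p = 7.9e-09). Birc3, the gene of cIAP2, read 319 and 329, 65 and 63.3, and 107 and 111 (2.32 ± 0.05, adjusted p = 9.85e-10), with anti-IgM below rest. Tnfrsf13b, the gene of the BAFF and APRIL receptor TACI, read 172 and 160.0 with LPS and 41.8 and 42.7 with anti-IgM (1.95 ± 0.12, adjusted p = 4.8e-07).

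Ribosome biogenesis and polyamine genes were called mostly on the LPS side. The list of MYC and its MAX partners did not lean clearly: of 10 tested genes 4 were higher with LPS and 3 with anti-IgM (median -0.01). Myc, the transcription factor that drives ribosome production and metabolism in activated lymphocytes, read 56.4 and 58.9 FPKM at rest, 266 and 287 with anti-IgM and 475 and 486 with LPS (0.80 ± 0.05, adjusted p = 9.83e-07). All 34 tested ribosome biogenesis genes were higher with LPS, where 27.7% of all tested genes were, and 5 of them at least 2-fold, with a median of 0.83. Rrp9, a factor of ribosomal RNA processing, read 43.3 and 43.5, 116 and 123, and 279.6 and 291 in that order (1.25 ± 0.07, adjusted p = 2.24e-07), and Nop58, a core protein of box C/D particles, 90.0 and 93.7, 235 and 220.4, and 489 and 480.2 (1.09 ± 0.05, adjusted p = 1.35e-07). Both thus ordered as rest, anti-IgM, LPS with no overlap. Polyamine and MYC-linked metabolic genes were higher with LPS in 16 of 25 and with anti-IgM in 2 (median 0.44). Srm, spermidine synthase, read 612 and 654 FPKM with LPS and 296 and 308 with anti-IgM (1.06 ± 0.06, adjusted p = 1.9e-07), while Sat1, which acetylates polyamines for breakdown and export, was opposite at 91.8 and 99.6 against 275 and 281 (-1.53 ± 0.07, adjusted p = 9.29e-08).

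Nutrient genes were called in both directions. Of 10 tested amino acid transporters 3 were higher with LPS and 4 with anti-IgM, and of 23 glycolysis genes 7 and 4, which became 5 and 9 under quantile normalization. Sterol and fatty acid synthesis genes were higher with LPS in 9 of 22 and with anti-IgM in 3, and in 6 and 6 under quantile normalization. The share called was 70.0% of the amino acid transporters, 47.8% of the glycolysis genes and 54.5% of the sterol and fatty acid genes. Over all tested genes it was 52.7%, with 27.7% higher with LPS and 25.0% with anti-IgM. Ubiquitous reference genes, listed as a check of scaling, were higher with LPS in 6 of 15 and with anti-IgM in 4, and in 2 and 6 under quantile normalization. Single steps differed clearly: Hk2, hexokinase 2, read 18.5 and 16.2 FPKM with LPS and 5.69 and 5.46 with anti-IgM (1.48 ± 0.14, adjusted p = 9.4e-06), and Slc16a1, a lactate carrier, 68 and 72.5 against 32.3 and 30.8 (1.13 ± 0.08, adjusted p = 1.9e-06). Pfkp, an isoform of phosphofructokinase, was on the other side at 37.1 and 38.7 against 72.4 and 76.1 (-0.95 ± 0.06, adjusted p = 8.26e-07), and so was the glutamine carrier gene Slc1a5 at 193 and 183 against 289 and 312 (-0.68 ± 0.06, adjusted p = 1.15e-05).

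Among cell cycle genes the largest difference was that of Ccnd2, which encodes cyclin D2 and read 166 and 163 FPKM with LPS, 20.0 and 15.9 with anti-IgM and 11.9 and 10.8 at rest (3.13 ± 0.11, adjusted p = 1.39e-08). Of 16 tested G1 genes 8 were higher with LPS and 2 with anti-IgM (median 0.30). The inhibitors of CDKs divided: Cdkn1a (p21) read 15.5 and 18 against 6.51 and 5.91 (1.30 ± 0.16, adjusted p = 7.8e-05), and Cdkn1b (p27) 0.879 and 0.999 against 3.70 and 3.30 (-1.21 ± 0.14, adjusted p = 5.78e-05). DNA replication genes were called in 5 of 24 (higher with LPS) and 4 of 24 (higher with anti-IgM), under the share of all tested genes. Mitosis genes were called in 1 and 5 of 20, which is 30.0% beside 52.7% of all tested genes. Their median of -0.14 turned to 0.11 under quantile normalization.

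Of 18 tested quiescence factors, which keep lymphocytes at rest, 14 were higher with anti-IgM and 2 with LPS (median -0.58). Pik3ip1, an inhibitor of PI3 kinase, read 2.61 and 3.12 FPKM with LPS and 36.5 and 38.8 with anti-IgM (-3.32 ± 0.11, adjusted p = 8.3e-09), the latter close to the resting 36.2 and 35.1. Txnip, which limits glucose uptake, read 19.8 and 18.9, 38 and 40.5, and 88.6 and 92.1 (-0.98 ± 0.07, adjusted p = 9.95e-07), below rest with both stimuli.

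Regulators of B cell fate were called in both directions, 10 and 10 of 25 tested. The share called was 80.0%, beside 52.7% of all tested genes. Id3, an inhibitor of E proteins, read 35.3 and 34.7 FPKM with LPS, 93.2 and 100.5 with anti-IgM and 335 and 290.5 at rest (-1.44 ± 0.07, adjusted p = 1.5e-07), whereas its relative Id2 read 137 and 144, 39.4 and 40.6, and 27.2 and 26.1 (1.78 ± 0.07, adjusted p = 3.04e-08). The 2 relatives were thus placed in opposite order. Xbp1, a factor of secretory cells, read 53.9 and 55.9 with LPS and 103 and 106 with anti-IgM (-0.92 ± 0.06, adjusted p = 4.89e-07). Genes of folding in the endoplasmic reticulum and of the unfolded protein response were higher with anti-IgM in 13 of 26 and with LPS in 6 (median -0.21). Ddit3, the stress factor CHOP, read 30.0 and 28.8 against 97.4 and 95.9 FPKM (-1.68 ± 0.06, adjusted p = 1.5e-08), with rest at 47.6 and 49. The oxidoreductase genes Ero1l and Ero1lb went opposite ways: the first read 59.7 and 62.2 with LPS and 30.6 and 34.2 with anti-IgM (0.89 ± 0.07, adjusted p = 3.38e-06), the second 8.47 and 8.74 against 18.5 and 19.4 (-1.05 ± 0.10, adjusted p = 1.06e-05). Of 5 tested genes of the aryl hydrocarbon receptor pathway, Ahr itself, a ligand-activated factor, read 12.6 and 13.7 with LPS and 39.2 and 35.4 with anti-IgM (-1.44 ± 0.12, adjusted p = 4.03e-06) and Tiparp, a target of it, 17.2 and 16.2 against 35.6 and 35 (-1.04 ± 0.09, adjusted p = 7e-06).

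**Figure D3:**
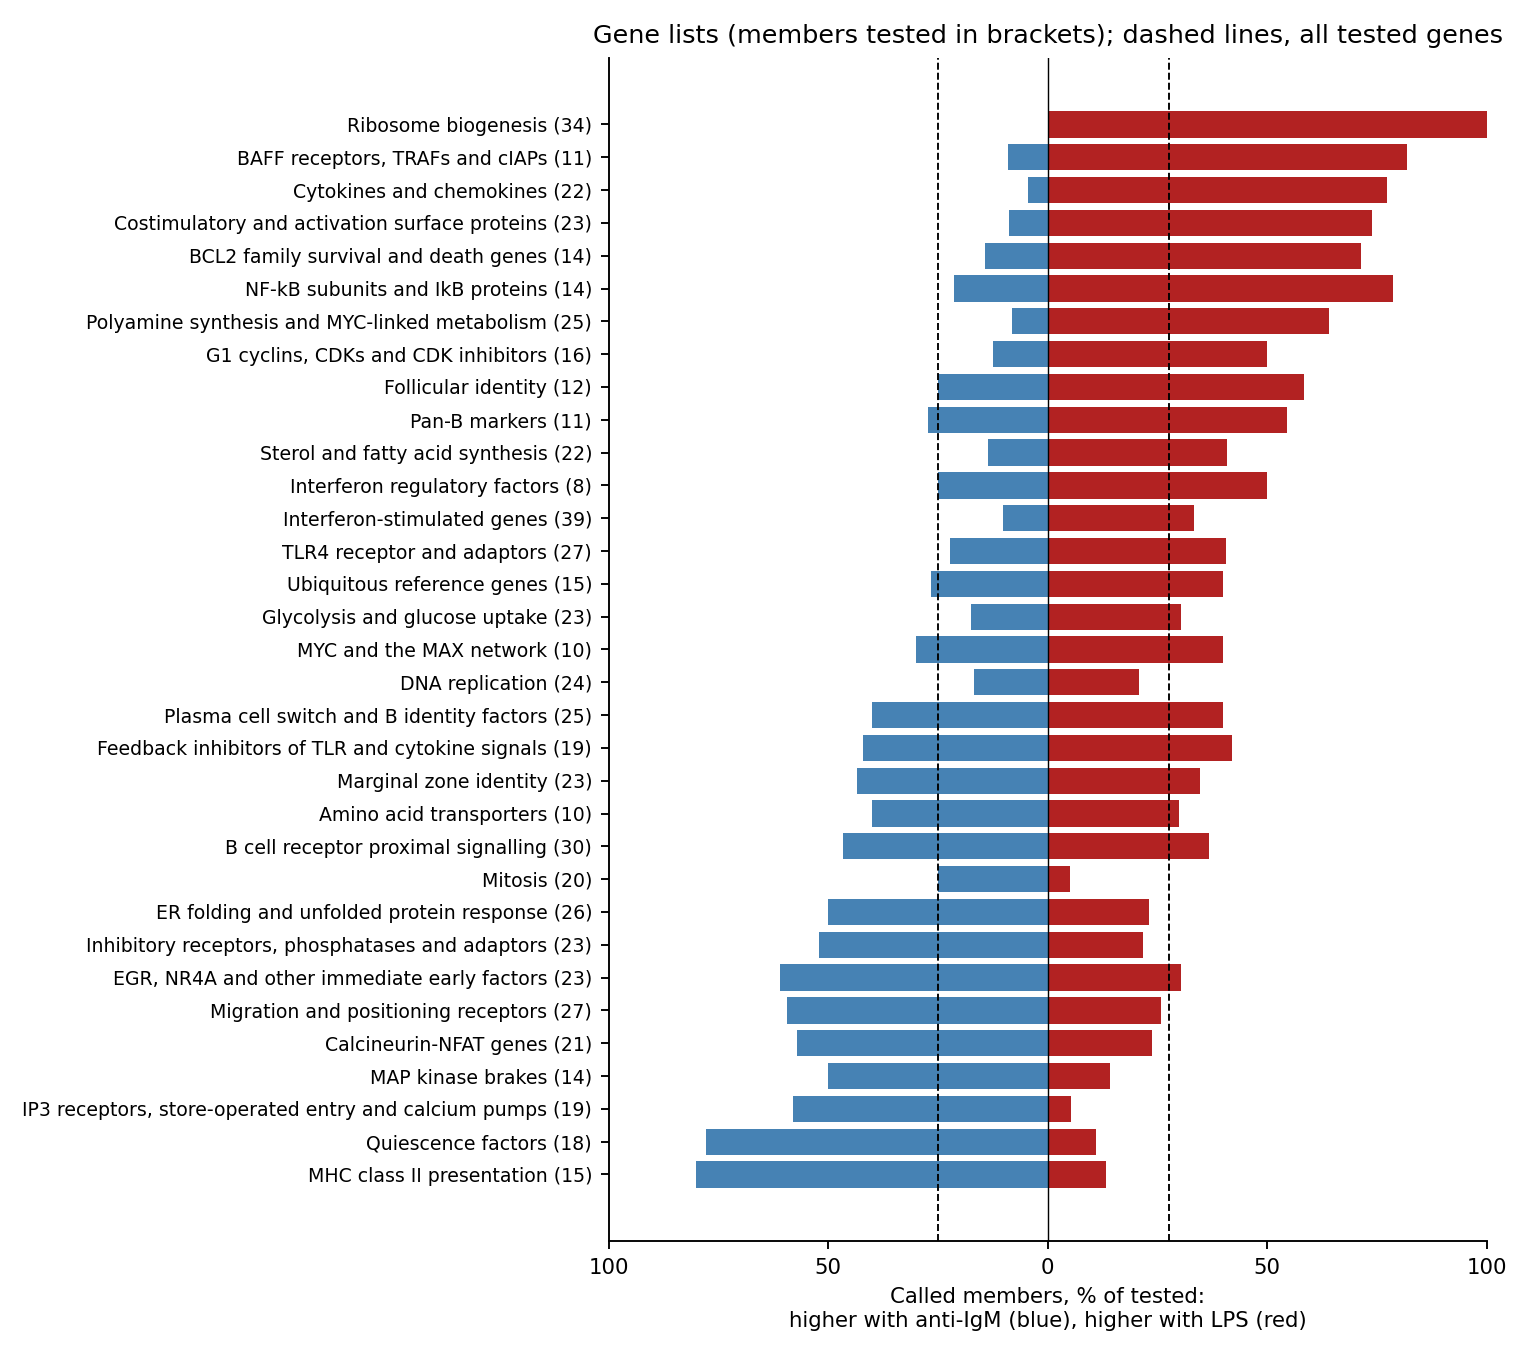
For lists with at least 8 tested members, bars give the share of those members (their number in brackets) called higher with LPS (red, right) or with anti-IgM (blue, left), and the dashed lines give the same shares over all tested genes, 27.7% and 25.0%. Ribosome biogenesis, the BAFF receptor and TRAF list and the NF-kB subunits reach furthest right, and MHC class II presentation and quiescence factors furthest left; for glycolysis, interferon regulatory factors and the ubiquitous reference genes the larger side changed under quantile normalization.

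Several of the largest differences lay outside these lists. With LPS as the higher side, Dennd3, an exchange factor for a Rab GTPase, read 47.1 and 45.8 FPKM against 0.726 and 1.32 with anti-IgM and 6.69 and 7.56 at rest (4.57 ± 0.15, adjusted p = 8.39e-09). Tmem123, which encodes a transmembrane protein, was abundant at 1853 and 1972 against 223 and 214 (3.12 ± 0.05, adjusted p = 2.19e-10). Rasl11a, a small GTPase-like gene, read 14.6 and 12.6 against 0.537 and 0.110 (3.48 ± 0.27, adjusted p = 2.72e-06). Dennd3 and Rasl11a were below their resting level with anti-IgM in every library. The alpha globin gene Hba-a2 ranked among the largest as well, at 73.4 and 195 FPKM with LPS, 1.58 and 2.59 with anti-IgM and 299 and 2.02 at rest (5.31 ± 1.95, adjusted p = 0.0413). Its resting libraries differed widely and its near-identical copy Hba-a1 read 205 and 77.2 with LPS and 338 and 329.5 with anti-IgM, so the split of reads between them is uncertain, and the Hba-a2 call was lost under 8 of 13 alternatives.

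With anti-IgM as the higher side, Rab30, a GTPase of the Golgi, read 56.3 and 55.6 FPKM against 2.11 and 2.41 with LPS and 19.6 and 21.8 at rest (-4.13 ± 0.16, adjusted p = 2.56e-08). Uap1l1, a relative of a nucleotide sugar enzyme, read 84.1 and 89.9, 4.64 and 4.69, and 27.9 and 27.1 (-3.96 ± 0.14, adjusted p = 9.1e-09), and Ephx1, microsomal epoxide hydrolase, 185 and 193, 12 and 9.87, and 107 and 104 (-4.0 ± 0.20, adjusted p = 1.23e-07). In all 3 the resting libraries lay between the stimuli. Gfi1, a transcriptional repressor, read 34.2 and 36.6 FPKM with anti-IgM and 1.79 and 1.30 with LPS (-3.84 ± 0.17, adjusted p = 4.97e-08), and Rasd1, a Ras-related gene, 33.1 and 34.5 against 2.33 and 1.39 (-3.62 ± 0.15, adjusted p = 2.92e-08). Neat1, a nuclear-retained long RNA that builds paraspeckles, read 62.2 and 75.3 with anti-IgM, 77.7 and 81.1 at rest and 3.65 and 3.11 with LPS (-3.99 ± 0.10, adjusted p = 1.97e-09). Malat1, likewise nuclear, differed less, at 196 and 219, 355 and 308, and 164 and 139 (-0.45 ± 0.10, adjusted p = 0.00286).

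The unstimulated libraries place these differences. Among the 2994 genes higher with LPS, 1983 (66.2%) ordered as rest, then anti-IgM, then LPS with no overlap among the 6 wild-type libraries, where 23.2% of all tested genes have this order. A further 291 (9.72%; 2.96% of all tested genes) ordered as anti-IgM, rest, LPS, with rest between the stimuli, and 148 (4.94%; 2.92%) as anti-IgM, LPS, rest. Among the 2701 genes higher with anti-IgM, 1353 (50.1%; 18.5% of all tested genes) ordered as LPS, anti-IgM, rest, so that both stimulated groups lay below rest and LPS furthest. Another 469 (17.4%; 4.61%) ordered as LPS, rest, anti-IgM, and 153 (5.66%; 2.87%) as rest, LPS, anti-IgM. The choice of genes by the stimulus difference fixes which orders can occur, so these are descriptions of levels. Among genes at least 2-fold apart, orders with rest between the stimuli were held by 122 of 393 on the LPS side (31.0%; Il6, Il1b and Dennd3 are examples) and 250 of 838 on the anti-IgM side (29.8%; Egr2, Lrmp and Rab30 are examples). In 572 and 726 genes some libraries of neighbouring groups overlapped.

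**Figure D4:**
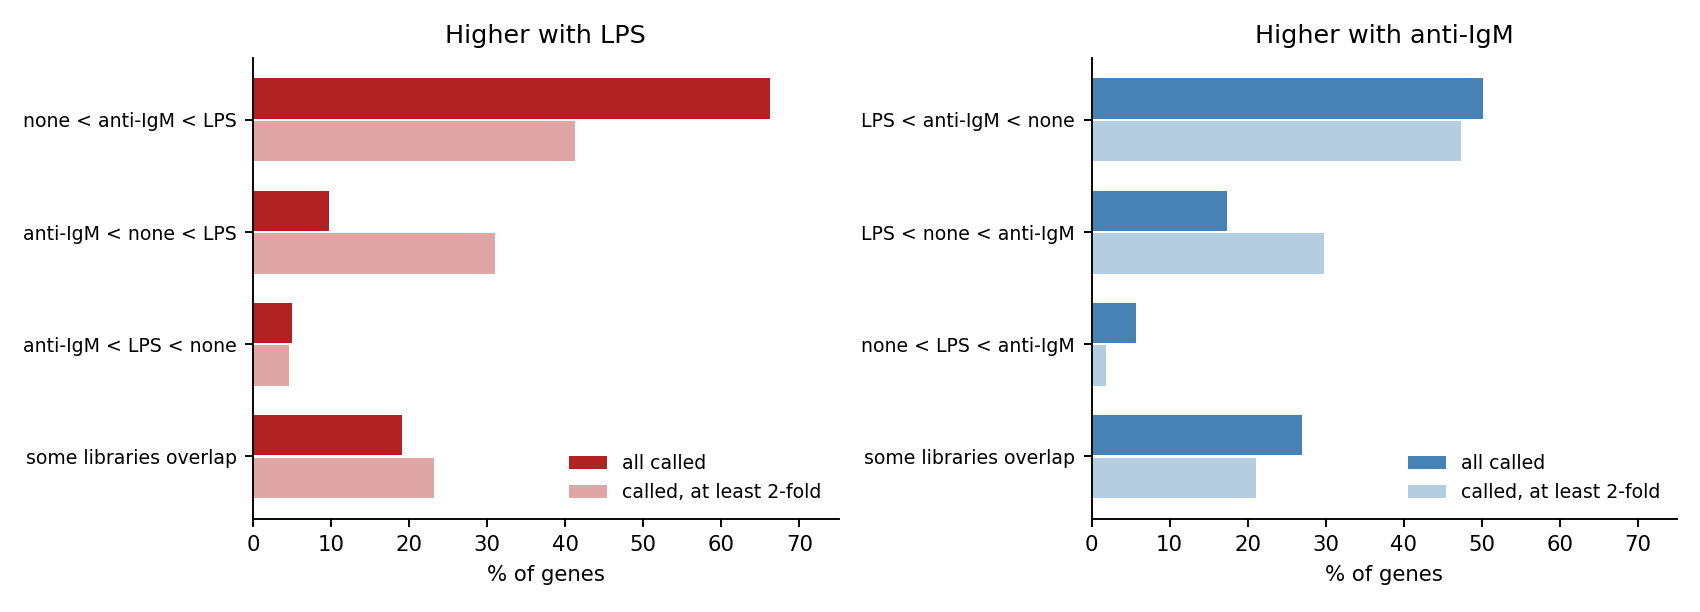
Bars give the share of genes whose 6 wild-type libraries order without overlap as written on the y axis (none is the unstimulated group), for all called genes (dark) and those at least 2-fold apart (light), by the side that was higher. The most frequent order is none, anti-IgM, LPS on the left (66.2%) and LPS, anti-IgM, none on the right (50.1%), and orders with rest between the stimuli reach 31.0% and 29.8% of genes at least 2-fold apart.

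The same contrast was available in 4 Trpm5-/- libraries, which share no library with the wild-type contrast. Both contrasts were taken from the same model over all 12 libraries, however, so a gene had the same SE in each. A gene with a small SE is more easily called in both, so the shares of calls below do not measure independent agreement. Trpm5, the deleted gene, was too low to test: it read 0.434 and 0.321 FPKM with LPS and 0.0590 and 0.0241 with anti-IgM in wild-type cells, and at most 0.0303 FPKM in the 4 stimulated Trpm5-/- libraries. Of the 2994 genes higher with LPS in wild-type cells, 2502 (83.6%) were also called higher with LPS in Trpm5-/- cells. There 28.3% of all tested genes were, and 6 of the 2994 were called the other way. Ccl4 was among these 6, with a difference of -0.21 (limma, adjusted p = 0.0315) in Trpm5-/- cells. Of the 2701 genes higher with anti-IgM, 2070 (76.6%) were called likewise, where 23.6% of all tested genes were, and 3 the other way. For genes at least 2-fold apart in wild-type cells the numbers were 370 of 393 (94.1%) and 777 of 838 (92.7%), and 0 were called the other way. The sign of the Trpm5-/- difference does not use the SE. It matched that in wild-type cells for 97.7% of the 2994 genes and 97.0% of the 2701. Ribosome biogenesis genes were higher with LPS in 34 of 34 again, cytokine genes in 18 of 22 with 3 higher with anti-IgM, and MHC class II genes were higher with anti-IgM in 11 of 15 with 2 higher with LPS.

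A test of the difference between genotypes called 12 of 10797 genes (0.111%; 1058 at an unadjusted p under 0.05), fewer or more when a library was left out (4 to 17). Lrmp was one: its LPS libraries read 8.88 and 12.3 FPKM in wild-type and 42.9 and 44.2 in Trpm5-/- cells, and its anti-IgM libraries 122 and 127 in wild-type and 167 and 168 in Trpm5-/- cells, so that the stimulus difference was -3.46 in wild-type and -1.92 in Trpm5-/- cells (difference of the differences -1.54 ± 0.15, adjusted p = 0.00446). This call held under all 16 alternatives tried. Ccl3 was another, with a stimulus difference of 1.16 in wild-type and 0.44 in Trpm5-/- cells (0.72 ± 0.10, adjusted p = 0.0378), and it held under 4 of 16.

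**Figure D5:**
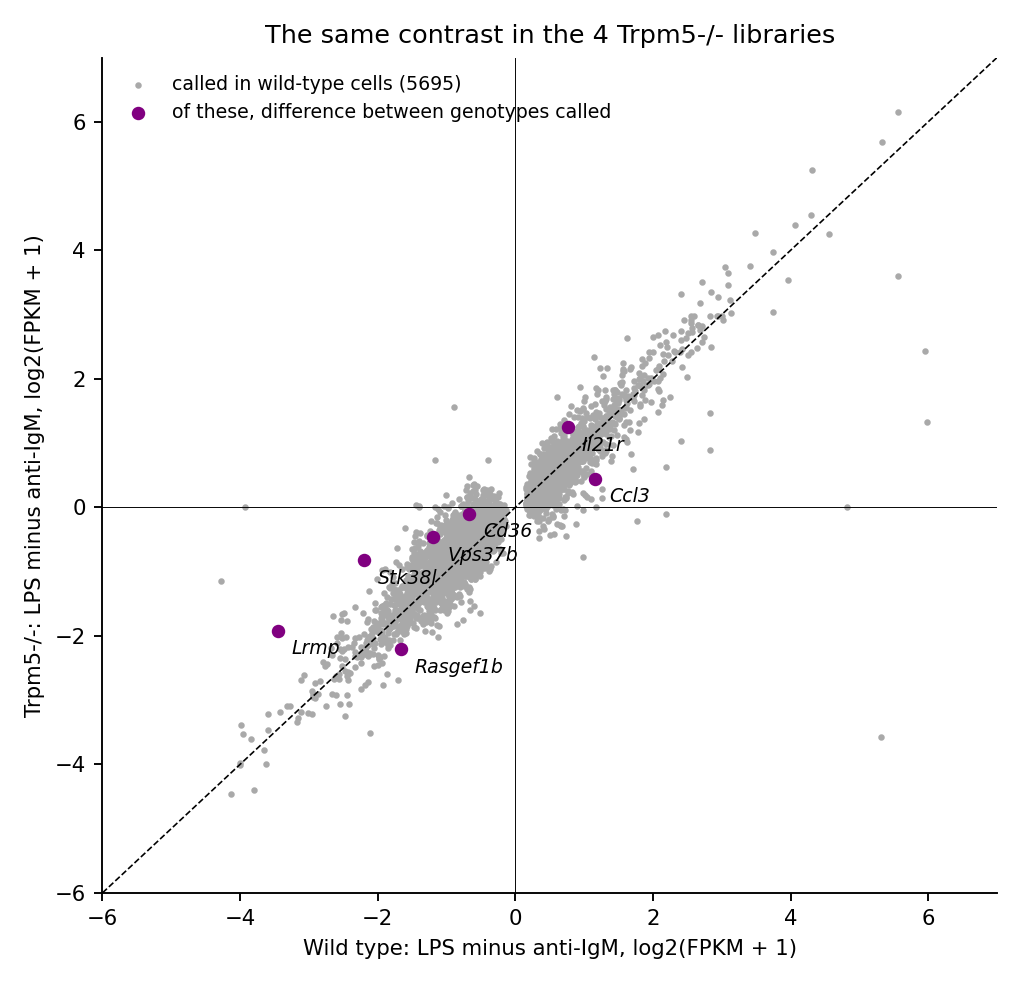
Each grey point is 1 of the 5695 genes called in wild-type cells, with the LPS minus anti-IgM difference in wild-type libraries on the x axis and in Trpm5-/- libraries on the y axis, both on the log2(FPKM + 1) scale; the dashed line marks equality and 6 called genes lie outside the axes. Most points follow the line, and the labelled purple points, Lrmp among them, are those of these genes whose difference between genotypes was called too, leaving out small RNA genes.

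Markers of other cell types were low or carried by 1 or a few genes. Of 12 listed T cell markers 11 have values, and Trac has none. Their summed FPKM was 29.3 and 24.8 with LPS, 111 and 105 with anti-IgM and 180 and 174 at rest. The sum was carried by Cd2 and Lck, with Thy1 at 0 in all 6 wild-type libraries. Lck read 13.8 and 15.3 with LPS and 66.2 and 62.8 with anti-IgM. Macrophage and monocyte markers (13) summed to 148 and 182 with LPS against 92.6 and 101 with anti-IgM, carried by Hmox1 at 124 and 164 against 73.9 and 79.6. The 9 dendritic cell markers summed to 125 and 127 against 67.7 and 75.9, of which Zbtb46 gave 65.1 and 70.2 against 11.9 and 11.9, with Clec9a at 0. NK cell markers (9) and neutrophil markers (8 with values of 9 listed) summed to at most 3.86 and 0.784 in the 6 wild-type libraries. In these, 6 neutrophil and 5 NK cell markers were at 0. The 7 platelet markers summed to at most 3.57 in the stimulated libraries, and the 9 stromal and endothelial markers to 13.5 and 12.8 with LPS against 5.96 and 6.49. Erythroid markers (9 with values of 11 listed) summed to between 379 and 539 in the stimulated libraries, carried by globin genes. The part of these cells in the differences above was not tested.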

How the data were processed

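The libraries hold RNA of marginal zone B cells in 6 groups of 2. Per the labels, a SMART-Seq HT kit served to turn total RNA into full-length cDNA, followed by Nextera libraries. Each deposited file lists gene symbols with 1 value apiece; they name no unit, and the values were treated as FPKM because the authors list Cufflinks and because low values come in steps set by gene and library. Per the submitters' processing notes the tools were Cufflinks 2.2.1, TopHat2 2.0.13, SAMtools 0.1.19 and Bowtie2 2.2.3, with the mm10 build. Not given in the sources used here are each tool's role, the annotation, the read totals and the use of strand, so genes that overlap on opposite strands cannot be told apart. Depth limits low genes most, since 1 fragment is a large part of their FPKM.

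Groups were taken from the sample titles. Genes with at least 1 FPKM in 2 or more of 12 libraries were analysed as log2(FPKM + 1) in a group-means model over all 12 libraries, with no further scaling (limma 3.58.1, R 4.3.3). Its eBayes step took a trend of variance with mean, and 6 degrees of freedom were residual. Tests were 2-sided. Calls required an adjusted p (Benjamini-Hochberg, over 10797 genes) under 0.05. Data were simulated for the wild-type contrast over 10797 genes with 200 of them changed. Of the 1.5-fold changes 41.8% were recovered, as were 82.1% of those of 2-fold and 95.5% of those of 4-fold. In all, 6 of 152 calls were false. The measured contrast called 5695 genes, which makes its cutoff on the unadjusted p looser. These shares need not hold for it. Alternatives were another pseudocount, other filters, 2 scalings, no trend, a replicate block, fewer libraries in the fit and each library left out. Of the 2 scalings, that by the median ratio could change little, since the libraries already had nearly the same median ratio.

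The members, the 43 gene lists and the tests were chosen with earlier results of these data known. Named genes are the 12 largest differences on each side among called genes whose higher group averaged 5 FPKM or more, without overlap (leaving out predicted models, receptor segments, small RNAs and mitochondrial genes), up to 4 members of smallest p in a list, and a set of receptor, cytokine and early genes. Ms4a1, Cr2, Cd1d1, Lta, Csf1, Rel, Nr4a2, Jun, Syk, Rgs1, Cxcr4 and the genes that differed between genotypes were named after their values were seen. Promoter sequences are from RefSeq (GRCm38.p6), matched by symbol or synonym. A few genes are not reported here.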

Additional observations from a re-analysis of the deposited data

Results flagged for a closer look

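The LPS minus anti-IgM difference itself differed between wild-type and Trpm5-/- cells for 12 genes in a test of the interaction (limma, adjusted p under 0.05), and values are wild type minus Trpm5-/- on the log2(FPKM + 1) scale. These genes were singled out after their values were seen. Beside Lrmp (-1.54) and Ccl3 (0.72) they include Stk38l, a kinase gene related to the NDR family, at -1.37 ± 0.19 (adjusted p = 0.0378). Stk38l read 4.33 and 4.15 FPKM with LPS and 22.1 and 23.9 with anti-IgM in wild-type cells. In Trpm5-/- cells it read 2.34 and 3.30 with LPS and 5.70 and 5.75 with anti-IgM. It was lower in Trpm5-/- cells at rest too, at 7.16 and 6.97 against 20.8 and 17.9 in wild-type cells. The call held under 5 of 16 alternatives. Napsa, an aspartic protease gene, stood at -0.72 ± 0.08 (adjusted p = 0.0124). Its wild-type libraries read 276 and 293 FPKM with LPS and 264 and 264 with anti-IgM. Its Trpm5-/- libraries read 216 and 215 with LPS and 124 and 117 with anti-IgM. At rest it read 301 and 298 in wild-type and 198 and 219 in Trpm5-/- cells. The call held under 10 of 16 alternatives.

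Smaller interactions were those of Vps37b (-0.73, adjusted p = 0.0494), Cd36, a scavenger receptor gene of marginal zone B cells (-0.57, adjusted p = 0.0405), Rasgef1b (0.54, adjusted p = 0.0378) and Il21r, the gene of the interleukin 21 receptor (-0.49, adjusted p = 0.0378), which held under 3, 5, 4 and 5 of 16 alternatives in that order. Amd2 stood at 3.82 (adjusted p = 0.0351), held under 5 of 16, and is a near-identical copy of Amd1, so its reads are uncertain.

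The remaining 3 are small RNA genes, whose fitted differences depend on the pseudocount and are no measure of a fold. Mir18 (fitted -8.53) was listed at 0 in the wild-type LPS libraries and the stimulated Trpm5-/- libraries and read 235 and 577 FPKM in the wild-type anti-IgM libraries. Mir324 (fitted -8.78) and Snord33 (fitted -10.82) were listed at 0 in every wild-type library and appeared in the Trpm5-/- LPS libraries, the first at 386 and 497 FPKM and the second at 1124 and 2893.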

How the results depend on the processing

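The count of genes called in wild-type cells (5695) stayed within 1.5 times under all 13 alternatives, at 4643 to 4823 with 1 library left out, and 153 of 162 called genes that the naming rule gives kept their call throughout. Ccl4 turned to -0.017 under quantile normalization, where Cd86, Idi1, Pgk1 and Gas5 also lost their calls, and Bst2, not called, ranged from -0.193 to 0.014 with 1 library left out. Replicate numbers showed no strong pairing of the libraries: deviations of same-numbered libraries correlated between -0.1723 and 0.1986, with 3 of 15 values over 0.1. Such a check cannot exclude a weak pairing. With the replicate block, 5732 wild-type genes and 5 interactions (12 without it) were called. Interactions numbered 4 to 17 with 1 library left out: 5 without wild-type LPS replicate 1 or 2, 4 or 8 without wild-type anti-IgM replicate 1 or 2, 17 or 6 when Trpm5-/- LPS replicate 1 or 2 was dropped, and 5 or 4 when it was Trpm5-/- anti-IgM replicate 1 or 2; a group left with 1 library is assumed to vary like the others. In the 100 bases before the start, 1.76% of promoters in the table held a kB match and 0.699% a CArG match. The causes of these changes were not tested, beyond the fewer libraries. In the simulation, where 200 genes changed, 41.8% of the 1.5-fold changes were recovered. Far more genes were called in the measured contrast, so the share missed there is not known.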

Other observations

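Families chosen by symbol after the data were seen are given here as counts and values. Lysosomal genes were mostly higher with anti-IgM: 25 of 29 tested cathepsins and lysosomal hydrolases, 16 of them at least 2-fold, against 3 higher with LPS, with a median of -1.11 beside 0.0 over all tested genes. Ctsb, the gene of cathepsin B, had a mean of 76.4 FPKM with anti-IgM, 46.3 at rest and 16.9 with LPS (-2.11 ± 0.07, adjusted p = 1.01e-08). Psap, the precursor of the saposins, had means of 265, 209 and 62.4 in that order (-2.07 ± 0.05, adjusted p = 1.27e-09), and Hexa, a subunit of hexosaminidase, 121, 59.1 and 25.9 (-2.19 ± 0.08, adjusted p = 1.35e-08). The proton pump that acidifies these compartments went along: 13 of 17 tested V-ATPase genes were higher with anti-IgM and 0 with LPS (limma; median -0.69), and 15 and 0 in Trpm5-/- cells. Its subunit gene Atp6v0d1 had means of 71.8 FPKM with anti-IgM, 36.5 at rest and 20.6 with LPS (-1.75 ± 0.09, adjusted p = 1.81e-07). Rab GTPases were called higher with anti-IgM in 19 of 43 and with LPS in 6, so that 58.1% were called, beside 52.7% of all tested genes. Rab8b was on the LPS side with means of 105 against 36.3 FPKM (1.51 ± 0.10, adjusted p = 1.02e-06).

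Several housekeeping complexes were called mostly on the LPS side. All 7 tested genes (of 9 listed) of the CCT chaperonin, which folds actin and tubulin, were higher with LPS (median 0.75), and Cct3 had means of 931 FPKM with LPS, 514 with anti-IgM and 253 at rest (0.86 ± 0.05, adjusted p = 5.85e-07). Nuclear pore genes were higher with LPS in 17 of 20 (median 0.59), with Nup62 at means of 158, 59.8 and 31.5 in the same order (1.39 ± 0.09, adjusted p = 1.04e-06). Proteasome subunits were higher with LPS in 32 of 37 and with anti-IgM in 0, but in 14 and 2 under quantile normalization. Cytosolic ribosomal protein genes were higher with LPS in 56 of 80 and with anti-IgM in 0, but in 5 and 19 under quantile normalization and in 11 and 1 in Trpm5-/- cells. Respiratory chain genes gave 32 and 7 of 86, and 7 and 32 under quantile normalization. Their share called was 45.3%, beside 52.7% of all tested genes. Of 27 tested histone genes 0 were higher with LPS and 4 with anti-IgM, so that 14.8% were called. Some of the 4 were near the floor: Hist1h4c read 1.44 and 0 FPKM with LPS and 2.95 and 3.61 with anti-IgM, and Hist1h3i 0 and 0 against 1.79 and 0.732.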
